A study of Mus musculus with 31 samples.

Results

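The genes described here are 10 interferon gamma induced genes measured in sorted immune cells of the mouse heart: the transcription factor gene Irf1, the guanylate binding protein genes Gbp2, Gbp3, Gbp4, Gbp5, Gbp6 and Gbp7, and the immunity-related GTPase genes Iigp1, Irgm1 and Igtp. They were taken by symbol from the count files, which hold 24421 gene symbols each, and all 10 were found in all 31 libraries. The hearts came from Balb/c mice aged 8 to 12 weeks, either after myocardial infarction (MI), made by tying off the left anterior descending coronary artery for good, or in the steady state (SS). From each kind of heart 4 populations were sorted by FACS: CD11c negative monocyte-derived cells, which the labels call macrophages, monocyte-derived cells with CD11c, called moDCs, and the conventional dendritic cells cDC1 and cDC2. There were 4 libraries in every group except MI cDC2, which had 3. The sources used here give neither the time after ligation, the sex of the mice, any operation on SS mice nor the antibodies of the sort. Nor do they say whether a library came from 1 heart or from pooled hearts, so p-values measure only the spread between libraries, which may be technical.

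Interferon gamma is a cytokine made mainly by T cells and NK cells. It binds the receptor chains Ifngr1 and Ifngr2, which carry the kinases Jak1 and Jak2. Signalling acts through gamma-activated sites (GAS) in promoters, that of Irf1 among them, and Irf1 protein then acts on interferon-stimulated response elements (ISRE). Guanylate binding proteins (GBPs) and immunity-related GTPases (IRGs) are among the most inducible products of this pathway in mice, where they gather on the membranes of vacuoles that hold intracellular microbes. Among the IRGs, Iigp1 is an effector that loads onto such vacuoles, whereas Irgm1 and Igtp (also called Irgm3) sit on the cell's own membranes and keep effectors inactive there.

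Promoter windows of 300 bases, with 250 before and 50 after the annotated start, were read from RefSeq (GRCm38.p6) for 7 of the 10 genes: Irf1, Gbp2, Gbp3, Gbp5, Gbp7, Irgm1 and Igtp. They are shown because these windows carry the letters of the elements through which the pathway is known to act, both in genes whose transcripts were lower after MI (Irf1, Gbp2, Gbp3) and in genes that passed no test of MI (Gbp5, Irgm1, Igtp). The windows are chr11:53769764-53770063 (plus strand) for Irf1, chr3:142620413-142620712 (plus) for Gbp2, chr3:142559794-142560093 (plus) for Gbp3, chr3:142496684-142496983 (plus) for Gbp5, chr11:48871371-48871670 (minus) for Irgm1 and chr11:58199306-58199605 (plus) for Igtp. Each is written 5′ to 3′ along its gene, and capitals mark matches on either strand. The letters searched were TTCNNNGAA for GAS, GAAA then any 2 bases then GAAA for ISRE, and GGGA then any base then TTTCC for NF-kB. ISRE matches overlap each other in Gbp3 and in Irgm1, and run together there.
Irf1: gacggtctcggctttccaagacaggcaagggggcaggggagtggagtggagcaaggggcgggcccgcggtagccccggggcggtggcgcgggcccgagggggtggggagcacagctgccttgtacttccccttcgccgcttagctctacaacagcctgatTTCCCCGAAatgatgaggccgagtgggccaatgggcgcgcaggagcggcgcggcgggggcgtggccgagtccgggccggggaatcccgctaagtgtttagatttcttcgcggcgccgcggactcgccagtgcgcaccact
Gbp2: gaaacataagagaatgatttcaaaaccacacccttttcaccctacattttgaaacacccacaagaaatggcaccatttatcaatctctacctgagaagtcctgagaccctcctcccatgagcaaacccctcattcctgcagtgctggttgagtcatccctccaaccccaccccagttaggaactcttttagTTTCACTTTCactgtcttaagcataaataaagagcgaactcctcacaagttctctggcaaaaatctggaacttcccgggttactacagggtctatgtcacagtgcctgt
Gbp3: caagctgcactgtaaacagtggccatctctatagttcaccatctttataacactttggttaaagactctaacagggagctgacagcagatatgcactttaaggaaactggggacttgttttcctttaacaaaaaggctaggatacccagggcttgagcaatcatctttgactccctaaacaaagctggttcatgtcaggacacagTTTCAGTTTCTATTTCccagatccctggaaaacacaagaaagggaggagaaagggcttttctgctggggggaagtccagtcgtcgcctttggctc
Gbp5: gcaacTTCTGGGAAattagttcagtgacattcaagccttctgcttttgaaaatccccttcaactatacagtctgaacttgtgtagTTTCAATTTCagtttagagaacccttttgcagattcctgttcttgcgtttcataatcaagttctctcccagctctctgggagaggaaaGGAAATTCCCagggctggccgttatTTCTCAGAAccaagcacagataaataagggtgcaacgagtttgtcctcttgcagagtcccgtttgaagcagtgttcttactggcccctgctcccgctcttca
Irgm1: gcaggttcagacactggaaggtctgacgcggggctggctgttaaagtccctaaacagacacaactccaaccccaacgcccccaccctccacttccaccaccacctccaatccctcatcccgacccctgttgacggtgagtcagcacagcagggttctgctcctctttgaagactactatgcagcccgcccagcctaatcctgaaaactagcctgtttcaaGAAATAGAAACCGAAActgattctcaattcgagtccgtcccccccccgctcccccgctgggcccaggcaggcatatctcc
Igtp: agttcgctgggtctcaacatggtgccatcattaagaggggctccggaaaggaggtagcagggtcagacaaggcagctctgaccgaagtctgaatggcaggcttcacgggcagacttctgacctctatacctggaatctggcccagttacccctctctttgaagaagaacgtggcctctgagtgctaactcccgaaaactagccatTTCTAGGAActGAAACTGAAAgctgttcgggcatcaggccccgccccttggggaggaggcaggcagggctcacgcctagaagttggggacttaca

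A GAS match was found in Irf1, Gbp5, Gbp7 and Igtp, and an ISRE match in Gbp2, Gbp3, Gbp5, Gbp7, Irgm1 and Igtp, so 7 of 7 genes with a window held one or the other. Over all 32851 RefSeq windows of this length, 8.30% held the GAS letters, 3.44% the ISRE letters and 11.3% either. The Irf1 window had its GAS match at position -90 from the start and no ISRE match, and the Gbp2 window had its ISRE match at position -59 and no GAS match. Gbp5 alone among the 7 held the NF-kB letters, at position -77, which 0.411% of all windows hold. Gbp3 and Irf1 each have a second annotated start whose window held none of these letters. These are matches of letters in a short window, and no binding was measured.

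The genes lie in a few clusters of the mouse genome (GRCm38, GENCODE M21). Gbp5 (chr3:142493978-142522344), Gbp7 (chr3:142530342-142550149), Gbp3 (chr3:142560026-142573209) and Gbp2 (chr3:142620602-142638008) follow each other on the plus strand of chromosome 3. Gbp4 (chr5:105115767-105139586) and Gbp6 (chr5:105270702-105293698) are on the minus strand of chromosome 5. Irgm1 (chr11:48861968-48871683, minus strand), Irf1 (chr11:53770014-53778374, plus strand) and Igtp (chr11:58199556-58207591, plus strand) are on chromosome 11, and Iigp1 (chr18:60376027-60392634, plus strand) is on chromosome 18.

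Libraries held 9148624 to 16531349 reads in genes. Levels are given as CPM, counts scaled for library size with edgeR's TMM factors. The defining genes of the labelled cell types were high in them. Xcr1, a chemokine receptor of cDC1, averaged 995 CPM in MI cDC1 and 910 CPM in SS cDC1, and at most 3.53 CPM in the other groups. Cd209a, a lectin of cDC2, averaged 2394 CPM in MI cDC2 and 2258 CPM in SS cDC2, but also 379 CPM in MI moDCs and 406 CPM in SS moDCs. Adgre1, which encodes F4/80, averaged 1522 CPM in MI macrophages and 1308 CPM in SS macrophages, with 698 CPM in MI moDCs and 892 CPM in SS moDCs. Itgax, which encodes CD11c, averaged 471 CPM in MI moDCs and 337 CPM in SS moDCs, but 40.9 CPM in MI macrophages and 7.50 CPM in SS macrophages. Its highest means were in cDC2, with 808 CPM in MI and 602 CPM in SS. Ccr2, one of the monocyte and macrophage markers, averaged 2125 CPM in MI macrophages and 420 CPM in SS macrophages. In moDCs it averaged 2828 CPM in MI and 1542 CPM in SS. Ccr2 did not mark these populations out from the conventional dendritic cells. It averaged 2367 CPM in MI cDC1 and 2149 CPM in MI cDC2, and 1584 CPM in SS cDC1 and 1838 CPM in SS cDC2. SS macrophages had its lowest mean of all groups. Libraries fell apart in one technical respect: reads outside annotated features made up 11.6% to 16.9% of the entries in the SS libraries numbered 1 and 4, 6.42% to 9.26% in the SS libraries numbered 2 and 3, and 6.85% to 10.9% in the MI libraries. Each test of MI was therefore repeated with each pair of SS numbers alone, and those adjusted p are given where a call changed.

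Markers of other cell types also differed between MI and SS, and they are given here because they move with the results that follow. The summed level of 12 endothelial markers was 7.10 to 13.3 CPM in MI cDC1 libraries, with Tie1, Tek, Emcn and Cldn5 at 0, against 93.0 to 414 CPM in SS cDC1. In moDCs it was 72.3 to 102 CPM in MI and 178 to 646 CPM in SS, in cDC2 38.3 to 58.4 CPM in MI and 52.2 to 251 CPM in SS, and in macrophages 48.5 to 106 CPM in MI and 69.4 to 163 CPM in SS. The MI and SS ranges did not overlap in cDC1 and moDCs, and did in cDC2 and macrophages. The sum of 10 mural markers was 0.819 to 2.96 CPM in MI cDC1 and 92.5 to 327 CPM in SS cDC1, and 14.3 to 17.5 CPM in MI moDCs and 39.6 to 346 CPM in SS moDCs. A list of 8 NK cell and ILC1 markers summed to lower values in MI without overlap in each cell type. It was at 14.0 to 22.8 CPM in MI cDC1 against 28.8 to 70.6 CPM in SS cDC1, 15.7 to 21.3 CPM in MI cDC2 against 28.1 to 45.2 CPM in SS cDC2. It was at 3.39 to 7.48 CPM in MI moDCs against 12.7 to 47.1 CPM in SS moDCs, and 0 to 0.619 CPM in MI macrophages against 4.90 to 24.8 CPM in SS macrophages. Of these markers Klra8 was at 0 in every group. T cell markers (8 genes) summed to 6.17 to 10.9 CPM in MI cDC1 against 16.7 to 63.7 CPM in SS cDC1. They summed to 12.7 to 22.3 CPM in MI moDCs against 26.6 to 112 CPM in SS moDCs, and overlapped in cDC2 and macrophages. In MI cDC1 Cd3e and Cd3g were at 0, in MI moDCs and MI cDC2 Cd3d, Cd3e and Cd3g, and in no SS group any of the 8. Fibroblast markers (8 genes) were at 1.30 to 2.88 CPM in MI cDC1 and 14.6 to 56.1 CPM in SS cDC1, and at 10.8 to 23.5 CPM in MI moDCs and 32.7 to 49.5 CPM in SS moDCs. Cardiomyocyte markers (6 genes) were lower in MI without overlap in each cell type, for example at 1.34 to 7.79 CPM in MI cDC1 and 9.46 to 24.5 CPM in SS cDC1. In cDC2, 8 monocyte and macrophage markers (4320 to 5304 CPM in MI, 5393 to 6980 CPM in SS), 6 B cell markers (7.64 to 12.2 CPM in MI, 14.1 to 21.9 CPM in SS) and 6 neutrophil markers (19.6 to 30.7 CPM in MI, 34.5 to 124 CPM in SS) did not overlap either. In cDC1 the monocyte and macrophage sum was higher in MI without overlap, at 2256 to 2735 CPM against 1789 to 2046 CPM in SS. The neutrophil sum was lower in MI cDC1 (1.33 to 2.37 CPM, against 3.61 to 9.10 CPM in SS). So was the B cell sum in MI moDCs (14.6 to 17.6 CPM, against 28.9 to 43.6 CPM in SS). In the remaining cell types the MI and SS ranges of these lists overlapped. Heat shock transcripts, a list added after the data were seen, summed to 2753 to 5264 CPM over the MI libraries and to 6021 to 14450 CPM over the SS libraries.

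**Figure D1:**
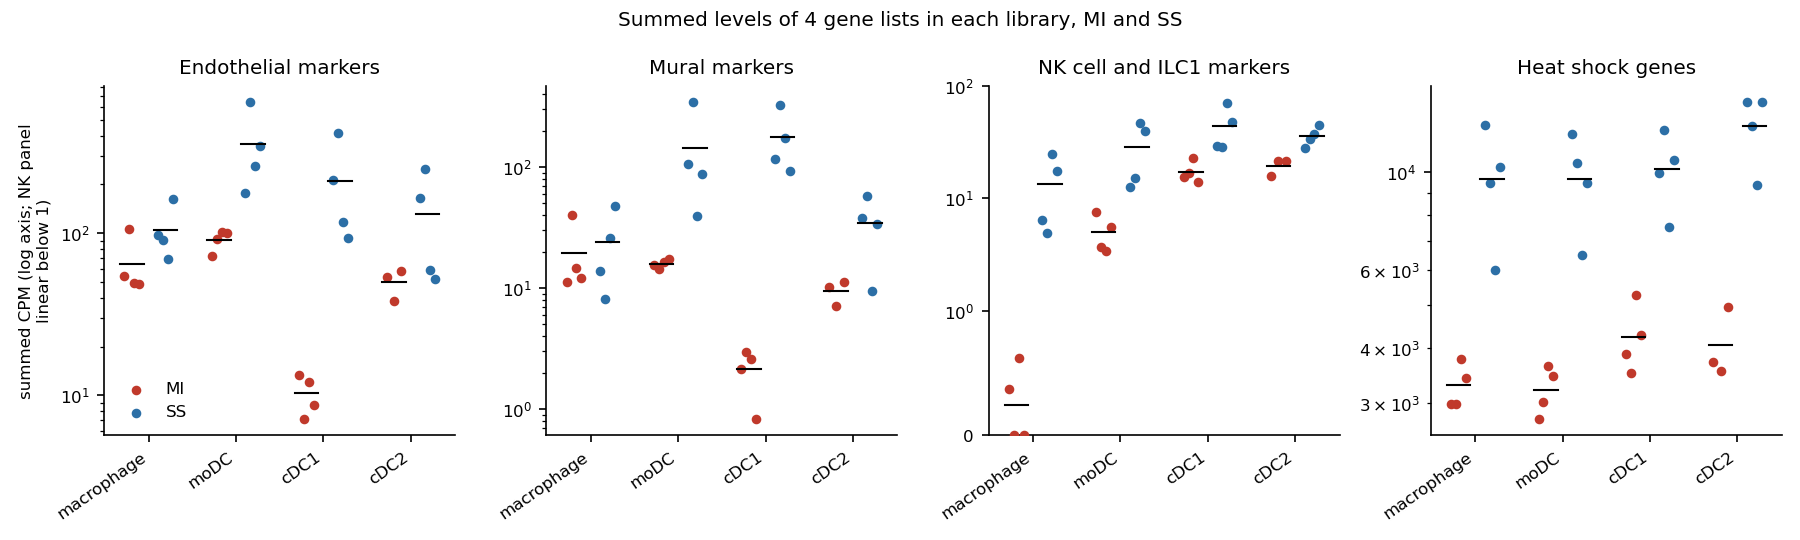
Summed CPM of endothelial markers, mural markers, NK cell and ILC1 markers and heat shock genes in each library (points), by cell type, with MI left of SS and the group mean as a line; axes are logarithmic, except that the NK panel is linear below 1. In cDC1 the endothelial sum was at most 13.3 CPM in MI and at least 93.0 CPM in SS, with no overlap, while in macrophages the ranges of 48.5 to 106 CPM in MI and 69.4 to 163 CPM in SS overlapped.

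All 10 genes passed the filter on low counts, and their levels spanned a wide range. Per kilobase of exon, Irf1 had the highest mean of the 10 genes in 7 of the 8 groups, from 29.8 ± 7.52 CPM per kb in MI cDC2 (SD, n = 3) to 71.2 ± 18.7 CPM per kb in SS macrophages (SD, n = 4). The exception was MI cDC1, where Irgm1 came first with 40.7 ± 6.21 CPM per kb and Irf1 followed with 15.3 ± 3.22 CPM per kb (SD, n = 4 each). Gbp6 came last in all 8 groups, with 1.46 ± 0.710 CPM per kb in SS moDCs as its highest mean (SD, n = 4). Summed over the 10 genes, the level was 415 to 512 CPM in MI macrophages against 432 to 576 CPM in SS macrophages, and 171 to 232 CPM in MI cDC1 against 250 to 333 CPM in SS cDC1.

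**Figure D2:**
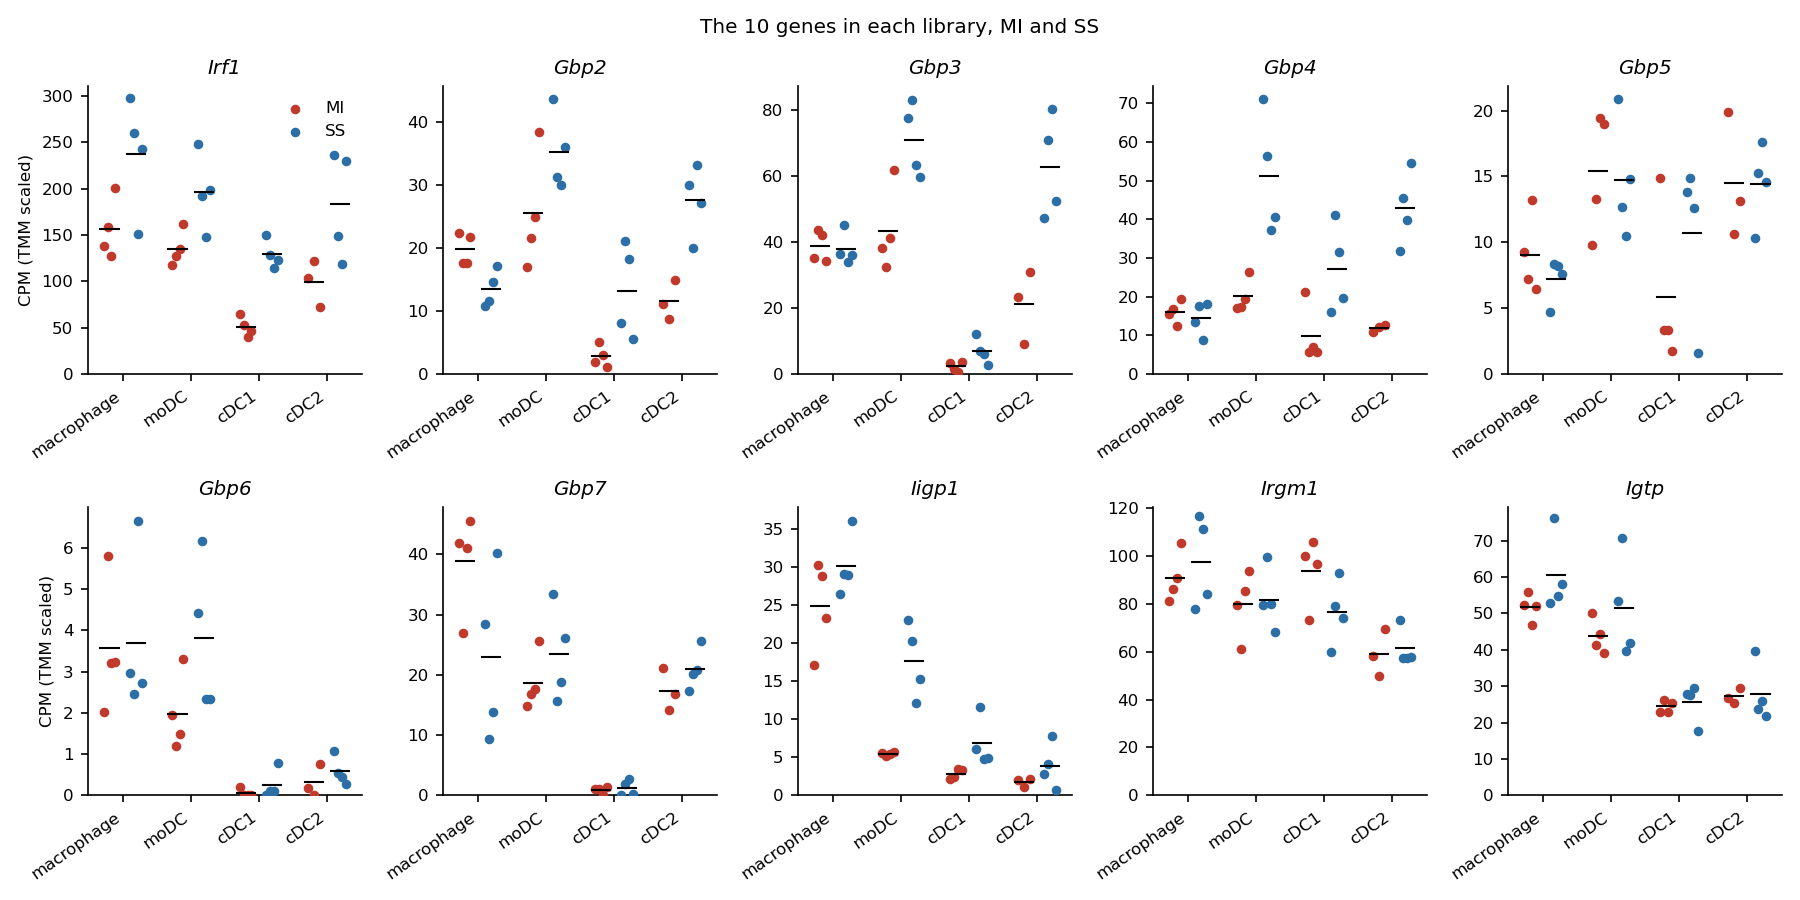
TMM-scaled CPM of Irf1, the 6 GBP genes and the 3 IRG genes in each library (points), by cell type, with MI left of SS and the group mean as a line; each panel has its own axis, which starts at 0. Gbp2 in cDC1 lay at 1.13 to 5.03 CPM in MI and 5.46 to 21.1 CPM in SS, whereas Igtp in cDC1 lay at 22.9 to 26.2 CPM in MI and 17.6 to 29.6 CPM in SS.

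Most of the 10 genes differed among the 4 cell types, and cDC1 was most often the low one. In an F test over the 4 cell types (edgeR's quasi-likelihood test with Benjamini-Hochberg adjustment over 13039 genes, called at adjusted p under 0.05), 8 of the 10 genes were called in MI, where 47.5% of all genes were, and 9 of 10 in SS, where 50.1% were. Gbp4 (adjusted p = 0.0537) and Gbp5 (adjusted p = 0.0731) were not called in MI, and Gbp5 was not called in SS (adjusted p = 0.240). Between pairs of cell types in MI, cDC1 was lower than moDCs in 8 genes (36.0% of all genes called either way) and lower than macrophages in 7 (45.4%). Against cDC2 it was lower in 4 and higher in 1, Irgm1 (26.8%). MI cDC2 were lower than moDCs in 3 genes (10.1%) and than macrophages in 5 (26.4%), and MI moDCs lower than macrophages in 1, Iigp1 (10.8%). In SS, cDC1 was lower than moDCs in 8 genes (33.3%), lower than cDC2 in 3 (28.2%), and lower than macrophages in 6 and higher in 1, Gbp4 (42.8%). SS cDC2 were lower than moDCs in 3 genes (15.4%), and lower than macrophages in 4 and higher in 2 (35.2%). SS moDCs were higher than macrophages in 2, Gbp2 and Gbp4 (12.9%). All these shares count genes called in either direction, and shares for one direction are not given. The counts for cDC1 against cDC2 in SS, and for moDCs against macrophages in both states, were close to those shares. Without MI cDC1 library 1, all 10 were called in MI, and without MI cDC2 library 2, 7 were, Irgm1 no longer.

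Irf1 was highest in macrophages and lowest in cDC1 in both states. In MI it averaged 156 ± 32.4 CPM in macrophages, 135 ± 18.8 CPM in moDCs, 99.4 ± 25.1 CPM in cDC2 (n = 3) and 50.9 ± 10.8 CPM in cDC1 (SD, n = 4 otherwise). The step between cDC2 and cDC1 was called (adjusted p = 0.00177), and the steps between the higher neighbours were not. In SS the order was the same, with 238 ± 62.3, 197 ± 41.1, 183 ± 58.6 and 129 ± 15.2 CPM (SD, n = 4 each), and no neighbouring pair passed the test. The step between SS cDC2 and SS cDC1 had an adjusted p of 0.0779. It was called when the replicate number was fitted as a block (adjusted p = 0.0186). The difference between SS cDC2 and SS macrophages, not called with an adjusted p of 0.181, was called in the fit with the replicate number as a block (adjusted p = 0.0418; log2 difference -0.37 without the block and -0.38 with it).

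Gbp3 and Gbp7 were lower in cDC1 than in any other cell type in both states. Gbp3 averaged 2.23 ± 1.46 CPM in MI cDC1, against 21.2 ± 11.1 CPM in MI cDC2 (n = 3), 38.9 ± 4.75 CPM in MI macrophages and 43.4 ± 12.9 CPM in MI moDCs (SD, n = 4 otherwise). Its step between cDC1 and the next cell type was called in MI (adjusted p = 4.92e-07, against cDC2) and in SS (adjusted p = 3.05e-06, against macrophages). Gbp7, linked in mouse macrophages to the phagocyte oxidase, was at 1.03, 0.986, 0 and 1.43 CPM in the 4 MI cDC1 libraries, against 21.1, 14.2 and 16.9 CPM in the 3 MI cDC2 libraries (adjusted p = 9.26e-06), and its highest MI group was macrophages with 38.9 ± 8.13 CPM (SD, n = 4). Gbp6 had only 2 reads in all MI cDC1 libraries together, and its share of the reads was 70.7 times as large in MI macrophages (95% exact interval 19.3 to 588, counting error only). Against MI cDC2, with 0.320 ± 0.402 CPM (SD, n = 3), MI cDC1 with 0.0514 ± 0.103 CPM (SD, n = 4) overlapped and was not called (adjusted p = 0.145), nor was SS cDC1 against SS cDC2 (adjusted p = 0.341). Of the 75-base windows along the exons of Gbp6, 67.3% also occur in other annotated genes, so its counts depend on how shared reads were assigned. Most are shared with Gm43302, which the count files do not hold. Windows shared with counted genes (Gbp10, Gbp11, Gbp8, Gbp4 and Gbp9) made up 42.7%. The share with any annotated gene was 11.3% for Gbp7 (mostly the pseudogene Gm43802), 7.80% for Igtp (Irgm2) and at most 3.08% for the other members.

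Gbp2 and Gbp4 had their highest means in moDCs in both states, as did Gbp3 and Gbp5. The lead of moDCs over the next cell type was called for none of these genes. In SS, Gbp2 averaged 35.2 ± 6.16 CPM in moDCs, 27.6 ± 5.60 CPM in cDC2, 13.5 ± 2.90 CPM in macrophages and 13.2 ± 7.57 CPM in cDC1 (SD, n = 4 each), with the step from cDC2 to macrophages called (adjusted p = 0.0165). Gbp4 followed a like order in SS, at 51.3 ± 15.7 CPM in moDCs, 42.9 ± 9.65 CPM in cDC2, 27.1 ± 11.4 CPM in cDC1 and 14.5 ± 4.22 CPM in macrophages (SD, n = 4 each), where the step from cDC1 to macrophages was called (adjusted p = 0.0295). In MI, Gbp4 was at 20.0 ± 4.38 CPM in moDCs and 9.77 ± 7.57 CPM in cDC1 at the ends of its order (SD, n = 4 each), with no neighbouring pair called. Gbp5, which promotes inflammasome assembly in mouse macrophages, was at 5.84 ± 6.10 to 15.4 ± 4.66 CPM over the MI groups and at 7.19 ± 1.71 to 14.7 ± 4.50 CPM over the SS groups (SD, n = 4 each at these ends), with no neighbouring pair called in either state.

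The IRGs ordered the cell types differently. Iigp1 was a macrophage-high gene: it averaged 24.9 ± 5.99 CPM in MI macrophages, 5.44 ± 0.235 CPM in MI moDCs, 2.84 ± 0.667 CPM in MI cDC1 and 1.76 ± 0.580 CPM in MI cDC2 (SD, n = 4, and 3 for cDC2). The step between MI macrophages and MI moDCs was called (adjusted p = 1.57e-04), while in SS, at 30.1 ± 4.13 CPM in macrophages and 17.7 ± 4.85 CPM in moDCs (SD, n = 4 each), it was not (adjusted p = 0.187). Igtp was higher in both monocyte-derived populations than in both conventional dendritic cells, in MI at 51.8 ± 3.65, 43.7 ± 4.76, 27.2 ± 2.15 and 24.4 ± 1.69 CPM in macrophages, moDCs, cDC2 (n = 3) and cDC1 (SD, n = 4 otherwise), with the step from moDCs to cDC2 called in MI (adjusted p = 0.0268) and in SS (adjusted p = 0.00104). Irgm1 had the most even means of the 10, between 59.2 ± 9.92 CPM in MI cDC2 (n = 3) and 93.8 ± 14.3 CPM in MI cDC1 (n = 4) over the MI groups (SD). No neighbouring pair was called in either state, though the F test over the cell types called Irgm1 in both. In cDC2 it was called lower than in macrophages in both states (adjusted p = 0.00163 in SS), and lower than in cDC1 in MI.

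After MI, none of the 10 genes was called higher in any cell type, where 2.16% of all genes were in cDC1, 4.41% in cDC2, 1.52% in moDCs and 4.01% in macrophages. Those called lower were in the conventional dendritic cells and moDCs. In MI cDC1, 5 of 10 were lower than in SS cDC1 (Gbp2, Gbp3, Gbp4, Iigp1 and Irf1), where 6.73% of all genes were called lower and 8.88% either way. In cDC2 4 of 10 were lower (Gbp2, Gbp3, Gbp4 and Irf1), against 6.63% of all genes lower and 11.0% either way. In moDCs 2 of 10 were lower (Gbp4 and Iigp1), against 3.32% lower and 4.84% either way. In macrophages 0 of 10 were called by edgeR's quasi-likelihood test or by DESeq2, against 7.39% of all genes either way and 3.37% lower, and 1 had an unadjusted p under 0.05. The median log2 fold change of the 10 genes was -1.30 in cDC1, -0.86 in cDC2, -0.50 in moDCs and -0.01 in macrophages, beside -0.03 over all genes tested in each of the 4. In bulk libraries, fewer cells of a kind that carry a transcript and less of it per cell cannot be told apart.

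**Figure D3:**
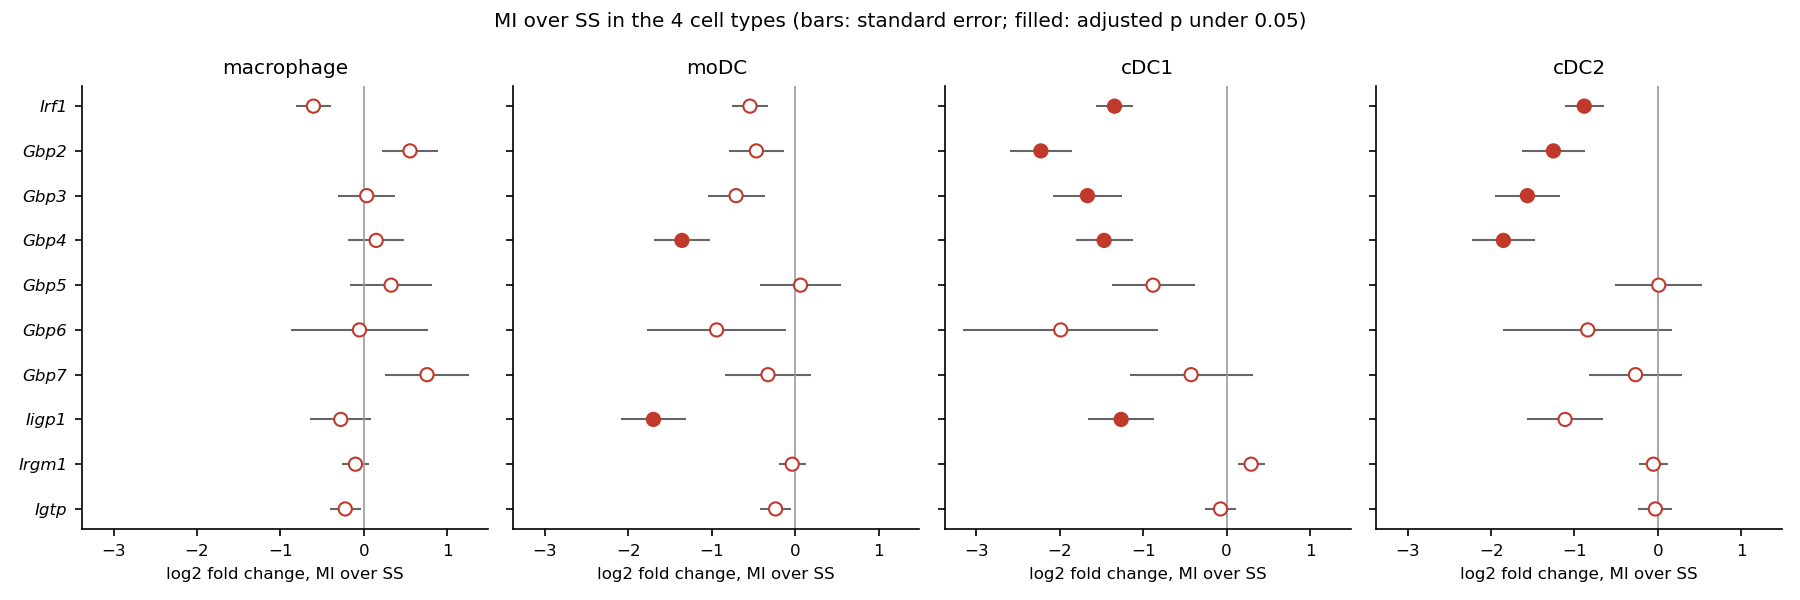
Log2 fold change of each gene, MI over SS, in the 4 cell types (points), with the standard error as a bar; filled points have an adjusted p under 0.05. Filled points lie below 0 in cDC1 (5 genes), cDC2 (4 genes) and moDCs (2 genes), and the macrophage panel has none; Irgm1 and Igtp lie near 0 throughout.

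Irf1, the transcription factor of the set, fell in both conventional dendritic cells. It was at 64.9, 52.5, 39.5 and 46.7 CPM in the MI cDC1 libraries, against 150, 129, 114 and 123 CPM in the SS cDC1 libraries. Every MI library lay below every SS library, and the level was 2.54-fold lower (log2 -1.34, SE 0.22, adjusted p = 9.21e-05). This held against each pair of SS numbers alone (adjusted p = 1.56e-05 with numbers 1 and 4, 8.84e-04 with 2 and 3). In cDC2 it was at 104, 122 and 72.4 CPM in MI, against 236, 149, 119 and 230 CPM in SS, so SS library 3 lay within the MI range. It was 1.84-fold lower (log2 -0.88, SE 0.24, adjusted p = 0.0126), with an adjusted p of 2.57e-04 against SS numbers 1 and 4 and 0.262 against 2 and 3. The call ended without MI cDC2 library 3 (adjusted p = 0.0965) or SS cDC2 library 1 (adjusted p = 0.0503), and with the fit on cDC2 libraries only (adjusted p = 0.0557).

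In macrophages and moDCs Irf1 did not pass the test. It was at 138, 159, 128 and 201 CPM in MI macrophages, against 298, 260, 151 and 243 CPM in SS macrophages (log2 -0.61, SE 0.21, adjusted p = 0.0862). SS macrophage library 3 lay among the MI values, and without it Irf1 was called (log2 -0.76, adjusted p = 0.0274). In moDCs it was at 118, 127, 134 and 161 CPM in MI, against 248, 192, 148 and 199 CPM in SS (log2 -0.54, SE 0.21, adjusted p = 0.155). In both, the call came with SS numbers 1 and 4 alone (adjusted p = 0.0112 in macrophages, 0.0318 in moDCs) and not with 2 and 3 (0.307 and 0.444). The effect of MI on Irf1 was not shown to differ among the 4 cell types (F test, adjusted p = 0.285), though 2 of 40 alternative fits called it.

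Gbp2 showed the largest called fold of the 10 genes after MI, in cDC1. It was at 1.95, 5.03, 3.06 and 1.13 CPM in MI cDC1, against 8.11, 21.1, 18.2 and 5.46 CPM in SS cDC1. The groups did not overlap, with the highest MI library just below the lowest SS library, and the level was 4.68-fold lower (log2 -2.23, SE 0.37, adjusted p = 9.34e-05; 0.0380 against SS numbers 1 and 4, 1.90e-05 against 2 and 3). In cDC2 Gbp2 was at 11.1, 8.63 and 14.9 CPM in MI, against 29.9, 20.0, 33.2 and 27.2 CPM in SS, again without overlap. There it was 2.38-fold lower (log2 -1.25, SE 0.37, adjusted p = 0.0248; 0.0304 against SS numbers 1 and 4, 0.0322 against 2 and 3), and the call ended without MI cDC2 library 1 (adjusted p = 0.0965), MI cDC2 library 2 (0.135) or SS cDC2 library 3 (0.0613). In macrophages the values ran the other way, at 22.4, 17.5, 17.5 and 21.7 CPM in MI against 10.8, 11.6, 14.5 and 17.1 CPM in SS, without overlap but short of the threshold (log2 0.55, SE 0.34, adjusted p = 0.381). In moDCs MI libraries had 16.9 to 38.4 CPM and SS libraries 29.9 to 43.5 CPM (log2 -0.47, SE 0.33, adjusted p = 0.513).

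Gbp3 fell in both conventional dendritic cells, from very different levels. In cDC1 it was at 3.19, 1.48, 0.557 and 3.69 CPM in MI, against 12.0, 6.83, 6.05 and 2.83 CPM in SS, with SS library 4 inside the MI range. It was 3.18-fold lower (log2 -1.67, SE 0.42, adjusted p = 0.00914), but the adjusted p was 0.0523 against SS numbers 1 and 4, 0.0535 against 2 and 3, 0.0677 without SS cDC1 library 1 and 0.115 in a fit on cDC1 libraries only. In cDC2 it was at 23.4, 9.13 and 31.0 CPM in MI, against 47.2, 71.0, 80.5 and 52.4 CPM in SS. These did not overlap, and the level was 2.96-fold lower (log2 -1.57, SE 0.39, adjusted p = 0.00705), with 0.155 against SS numbers 1 and 4, 0.00441 against 2 and 3, and 0.0672 without MI cDC2 library 2. In moDCs 3 of the 4 MI libraries lay below all SS libraries (log2 -0.71, SE 0.34, adjusted p = 0.264), and in macrophages the values were alike in range (34.3 to 43.7 CPM in MI, 33.8 to 45.2 CPM in SS; log2 0.03, SE 0.34, adjusted p = 0.986).

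Gbp4, of the chromosome 5 cluster, was called lower in 3 cell types. In moDCs it was at 17.1, 17.2, 19.3 and 26.4 CPM in MI, against 71.2, 56.3, 37.2 and 40.5 CPM in SS. The groups did not overlap, and the level was 2.56-fold lower (log2 -1.36, SE 0.33, adjusted p = 0.0119; 0.0217 against SS numbers 1 and 4, 0.0534 against 2 and 3). The adjusted p was 0.0527 without MI moDC library 1, 0.0532 without MI moDC library 2 and 0.0558 without SS moDC library 1. In cDC2 Gbp4 was at 10.9, 12.1 and 12.6 CPM in MI, a narrow range, against 31.7, 45.6, 39.7 and 54.6 CPM in SS. It was 3.61-fold lower there (log2 -1.85, SE 0.38, adjusted p = 0.00108), called against either pair of SS numbers (adjusted p = 0.00394 and 0.00351) and in every fit that left out 1 library. In cDC1 it was at 21.1, 5.52, 6.96 and 5.53 CPM in MI, against 16.1, 41.1, 31.5 and 19.6 CPM in SS, so MI library 1 lay among the SS values. It was 2.77-fold lower (log2 -1.47, SE 0.34, adjusted p = 0.00481), with 0.178 against SS numbers 1 and 4, 0.00226 against 2 and 3, and 0.0555 in a fit on cDC1 libraries only. In macrophages it was at 12.3 to 19.4 CPM in MI and 8.86 to 17.97 CPM in SS (log2 0.15, SE 0.34, adjusted p = 0.879).

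Gbp5, Gbp6 and Gbp7 passed no test of MI. Gbp5 was at 14.9, 3.35, 3.34 and 1.74 CPM in MI cDC1, against 13.8, 14.9, 12.6 and 1.56 CPM in SS cDC1. One library in each group stood apart, MI library 1 high and SS library 4 low (log2 -0.88, SE 0.50, adjusted p = 0.333), and without MI cDC1 library 1 Gbp5 was called lower (log2 -1.92, adjusted p = 0.00904). In the other cell types its log2 fold changes were 0.01 in cDC2, 0.06 in moDCs and 0.33 in macrophages, with SEs of 0.48 to 0.52. Gbp7 was at 41.9, 27.0, 41.1 and 45.5 CPM in MI macrophages, against 28.5, 9.41, 13.9 and 40.2 CPM in SS macrophages (log2 0.76, SE 0.51, adjusted p = 0.445). There the SS libraries numbered 2 and 3, which have the smaller share of reads outside features, were the low ones, and Gbp7 was called higher in MI against these alone (adjusted p = 0.00740). Gbp6 stayed at 0.771 CPM or below in every MI cDC1 and cDC2 library and at 1.08 CPM or below in every SS one, and no change was detectable at this depth.

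Of the IRGs, Iigp1 fell in moDCs and cDC1. In moDCs it was at 5.54, 5.15, 5.38 and 5.70 CPM in MI, against 23.0, 20.3, 12.2 and 15.3 CPM in SS. The 4 MI values lay close together and far below all SS values, and the level was 3.25-fold lower (log2 -1.70, SE 0.38, adjusted p = 0.00567), called against either pair of SS numbers (adjusted p = 0.00306 and 0.00745) and in every fit without 1 library. In cDC1 it was at 2.16, 2.37, 3.44 and 3.38 CPM in MI, against 6.13, 11.6, 4.76 and 4.87 CPM in SS. These did not overlap and the level was 2.40-fold lower (log2 -1.26, SE 0.40, adjusted p = 0.0407), but the call ended on leaving out any MI cDC1 library or SS cDC1 library 1 or 2, with adjusted p of 0.0524 to 0.212, and against SS numbers 1 and 4 (0.138). In cDC2 the MI libraries had 1.09 to 2.12 CPM and the SS libraries 0.655 to 7.77 CPM (log2 -1.11, SE 0.46, adjusted p = 0.118), and without SS cDC2 library 4, the lowest, Iigp1 was called there (adjusted p = 0.0107). It was also called in cDC2 against SS numbers 2 and 3 (adjusted p = 0.00500) and not against 1 and 4 (0.997). In macrophages, its highest group, it was at 17.1 to 30.3 CPM in MI and 26.4 to 36.0 CPM in SS (log2 -0.28, SE 0.37, adjusted p = 0.753).

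Irgm1 and Igtp did not pass the test in any cell type, and their standard errors were the smallest of the 10 genes. Irgm1 was at 99.8, 73.1, 106 and 96.5 CPM in MI cDC1, against 59.8, 79.2, 92.9 and 74.2 CPM in SS cDC1, its largest difference (log2 0.29, SE 0.16, adjusted p = 0.316). In the other cell types its log2 fold change lay between -0.10 and -0.04, with SEs of 0.16 to 0.18. Igtp was at 22.9, 26.2, 23.0 and 25.5 CPM in MI cDC1, against 27.9, 27.5, 29.6 and 17.6 CPM in SS cDC1 (log2 -0.07, SE 0.19, adjusted p = 0.901). Its log2 fold changes elsewhere ran from -0.24 in moDCs to -0.03 in cDC2, with SEs of 0.19 to 0.20. In the same cDC1 libraries, then, Gbp2 and Irf1 were lower in every MI library than in any SS library, while the ranges of Irgm1 and Igtp overlapped.

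Whether the effect of MI itself differed among the 4 cell types was tested with an F test on the interaction, and 2 of the 10 genes were called, Gbp2 (adjusted p = 0.00196) and Gbp4 (adjusted p = 0.0288), where 6.80% of all genes were. For Gbp2 the log2 fold change in cDC1 was lower than in macrophages by a difference of -2.78 (adjusted p = 6.10e-04; 4.04% of all genes called), and that in cDC2 by -1.81 (adjusted p = 0.0299; 4.49% called). For Gbp4 these differences were -1.62 (adjusted p = 0.0492) and -1.999 (adjusted p = 0.0148). Gbp4's F test ended without MI cDC2 library 1 (adjusted p = 0.0509), MI macrophage library 2 (0.0541) or 4 (0.0683), or SS macrophage library 1 (0.0691) or 3 (0.0828). Against SS numbers 1 and 4 alone neither gene was called (adjusted p = 0.108 for Gbp2, 0.173 for Gbp4), and against 2 and 3 Gbp2 was (8.97e-04) and Gbp4 was not (0.0511). The other 8 genes were not called, though Gbp3 was with DESeq2 (adjusted p = 0.0253) and without SS cDC1 library 4 (0.0312), and Gbp7 was against SS numbers 2 and 3 (0.0139). Irf1 was called in 2 of 40 alternative fits (adjusted p of 0.0332, and 0.0419 with the replicate number as a block). A call in one cell type and not in another says nothing of a difference between them.

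Non-immune transcripts moved with these results. In a fit with the summed mural and endothelial level as a covariate, 0 of the 10 genes were called in cDC1 and 0 in moDCs, with adjusted p of 0.810 for Gbp2, 0.648 for Irf1 and 0.991 for Gbp4 in cDC1, and 0.486 for Gbp4 and 0.332 for Iigp1 in moDCs. Only 27 of the 13039 genes were called in cDC1 and 106 in moDCs in that fit. Since the marker sums did not overlap between MI and SS in these cells, the covariate and the state cannot be told apart there. In cDC2, where the endothelial and mural sums overlapped but those of NK cell, B cell, monocyte and macrophage, neutrophil and cardiomyocyte markers did not, Gbp3 (adjusted p = 0.0345) and Gbp4 (adjusted p = 0.00941) were still called with the covariate, and Gbp2 (0.0950) and Irf1 (0.0573) were not. Calls in cDC1 and moDCs in the gene lists that follow are subject to the same limit. For counts in those lists, the shares of all genes called lower in MI were 6.73% in cDC1, 6.63% in cDC2, 3.32% in moDCs and 3.37% in macrophages. Shares called higher were 2.16%, 4.41%, 1.52% and 4.01% in the same order. The part of the other marker lists and of heat shock transcripts in these results was not tested.

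Upstream of the 10 genes, the receptor and the kinases it carries were present and mostly did not pass the test. Ifng had 0 reads in all 15 MI libraries together and 110 reads in 9 of 16 SS libraries, at least 32.0-fold lower in MI against a floor of 3 reads over the 15 libraries, and it was called in no cell type. A count of 0 allows up to 0.0194 CPM over the MI libraries. Ifngr1 averaged 615 ± 33.1 CPM in MI cDC1 and 475 ± 26.0 CPM in SS cDC1 (SD, n = 4 each; adjusted p = 0.0783), and Ifngr2 172 ± 9.60 CPM in MI cDC1 and 156 ± 18.8 CPM in SS cDC1 (SD, n = 4 each; adjusted p = 0.6001). Of the 6 genes of signal transduction, Jak2 was 2.29-fold higher in MI cDC2 (209 ± 36.1 CPM, n = 3, against 91.4 ± 35.5 CPM in SS, n = 4, SD; adjusted p = 0.00119), and Stat3 1.61-fold higher in MI macrophages (adjusted p = 0.00188). Jak2 was also called higher in MI moDCs and Stat3 in MI cDC2, the first lost without MI moDC library 3 or 4 or SS moDC library 1, 2 or 4 (adjusted p up to 0.138) or against SS numbers 2 and 3 (0.137). The second was lost without MI cDC2 library 1 or 2 or SS cDC2 library 2 or 3 (up to 0.150) or against SS numbers 1 and 4 (0.0565). In cDC1 0 of the 6 signal genes were called. Jak1 was called in no cell type.

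Among 10 genes that restrain the pathway, 2 were called higher in cDC1, 2 in cDC2, 1 in moDCs and 3 in macrophages, and 1 was called lower, Pias1 in macrophages. Ptpn1, a phosphatase that acts on Jak2, was the gene called in moDCs, a call lost without MI moDC library 1 or 2 or SS moDC library 1, 2 or 4 (adjusted p up to 0.108) or against SS numbers 2 and 3 (0.221). It was 2.15-fold higher in cDC1, at 268 ± 34.0 CPM in MI and 125 ± 2.80 CPM in SS (SD, n = 4 each; adjusted p = 3.27e-07). Irf2bp2, a corepressor that binds Irf2, was 1.57-fold higher in MI cDC1 (adjusted p = 0.00516; 0.0689 against SS numbers 2 and 3) and 1.78-fold higher in MI cDC2 (adjusted p = 6.14e-04). Socs1, the feedback inhibitor of Jak kinases, averaged 14.6 ± 2.19 CPM in MI cDC1 and 17.4 ± 6.08 CPM in SS cDC1 (SD, n = 4 each; adjusted p = 0.665) and was called in no cell type, nor was Irf2, which competes with Irf1 for its elements. Of 8 other interferon regulatory factors, 2 were called after MI in macrophages, 3 in cDC1, 2 in cDC2 and 0 in moDCs. Irf7 was higher in MI macrophages (adjusted p = 0.04075, and 0.0871 against SS numbers 1 and 4) and MI cDC1 (0.0388, and 0.228 against 2 and 3). It was lower in MI cDC2 (adjusted p = 0.00689). Irf4 was lower in MI macrophages (adjusted p = 0.00771) and MI cDC1 (0.0411, and 0.646 against 2 and 3). Irf5 was 1.43-fold lower in MI cDC2 (adjusted p = 0.00120) and lower in MI cDC1 (0.0482, but 0.143 and 0.140 against the pairs). Irf8, which cDC1 need to develop, averaged 3903 ± 302 CPM in MI cDC1 and 3786 ± 337 CPM in SS cDC1 (SD, n = 4 each, adjusted p = 0.915).

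Other GTPases of both families were counted in the same way. Of 4 other GBP genes tested, 3 were lower in MI cDC1 (Gbp2b, Gbp9, Gbp10), 2 in MI cDC2 (Gbp8, Gbp9), 1 in MI moDCs (Gbp9) and 0 in MI macrophages. Gbp9 averaged 18.6 ± 5.44 CPM in MI cDC2 (n = 3) and 49.5 ± 6.78 CPM in SS cDC2 (n = 4), 2.67-fold lower (SD; adjusted p = 2.58e-04), and was 2.19-fold lower in moDCs (adjusted p = 0.00232) and 2.08-fold lower in cDC1 (adjusted p = 0.00316). Gbp10 had 1 read in MI cDC1 and 47 in SS cDC1, and its share of the reads was 39.0 times as large in SS cDC1 (95% exact interval 6.66 to 1572, counting error only). Gbp10 shares sequence windows with Gbp6, so its counts also depend on how shared reads were assigned. Of 9 other IRG genes tested, Ifi47 was 1.59-fold higher in MI cDC1, at 45.5 ± 5.24 CPM against 28.6 ± 4.23 CPM in SS (SD, n = 4 each; adjusted p = 0.00818; 0.0673 against SS numbers 2 and 3). Gm4951 was called lower in MI moDCs, a call lost without SS moDC library 2 (adjusted p = 0.0555) or against SS numbers 1 and 4 (0.105). Tgtp2 was called lower in MI cDC2, lost without MI cDC2 library 1 (0.147) or 2 (0.115) or against SS numbers 1 and 4 (0.0891).

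Targets of interferon gamma outside the GTPases were counted in a presentation list and in a list of chemokines and effectors. Of 12 genes of antigen presentation, 10 did not pass the test in cDC1, 10 in cDC2, and 12 in each of the other cell types. Tap1, a subunit of the peptide transporter for MHC class I, was 1.38-fold higher in MI cDC1 (799 ± 57.0 CPM against 579 ± 45.3 CPM in SS, SD, n = 4 each; adjusted p = 0.00378), and Ciita, the switch gene of MHC class II, was 2.09-fold higher in MI cDC2 (adjusted p = 6.89e-04). B2m was called lower in MI cDC1 (1.33-fold, adjusted p = 0.0381) and MI cDC2 (1.34-fold, adjusted p = 0.0430), and neither call held when single libraries were left out. The first ended without MI cDC1 library 2, 3 or 4 or SS cDC1 library 2 or 3 (adjusted p up to 0.161), or against SS numbers 1 and 4 (0.361). The second ended without any MI cDC2 library or SS cDC2 library 1, 2 or 3 (up to 0.144), or against SS numbers 1 and 4 (0.139). Of 22 chemokine and effector genes, 6 were lower in MI cDC1, 6 lower and 1 higher in MI cDC2, 1 lower in MI moDCs and 3 higher in MI macrophages. The median log2 fold change of the 22 was -1.07 in cDC1, -0.46 in cDC2, -0.54 in moDCs and 0.28 in macrophages, beside -0.03 over all genes. That of the 12 presentation genes was 0.02, -0.03, -0.09 and -0.05 in the same order. The difference between the lists was not tested. Icam1, an adhesion molecule, was lower in 3 cell types, 3.15-fold in MI cDC2 (195 ± 25.1 CPM, n = 3, against 613 ± 93.1 CPM in SS, n = 4, SD; adjusted p = 9.20e-06), 2.01-fold in MI cDC1 (adjusted p = 0.00159) and 1.94-fold in MI moDCs (adjusted p = 0.00409). Ly6e was 6.22-fold lower in MI cDC1 and 7.97-fold lower in MI cDC2 (adjusted p = 1.34e-05 and 1.05e-05). Cxcl9, a chemokine that draws T cells, averaged 3.25 ± 2.25 CPM in MI cDC2 (n = 3) and 17.2 ± 9.88 CPM in SS cDC2 (n = 4), 5.24-fold lower (SD; adjusted p = 0.00825), lost without MI cDC2 library 2 (0.0628) or 3 (0.0592) and against SS numbers 1 and 4 (0.139). In macrophages Cxcl11, of the same chemokine family, was 4.96-fold higher in MI (3.77 ± 1.35 CPM against 0.752 ± 0.493 CPM in SS, SD, n = 4 each; adjusted p = 6.74e-04). Icam1 and Ly6e are also expressed by endothelial cells, whose marker sums are given above.

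Most type I interferon response genes did not pass the test in any one cell type. Of 27 genes, 6 were higher and 0 lower in MI macrophages, 5 higher and 1 lower in MI cDC1, 3 higher and 4 lower in MI cDC2, and 1 higher and 1 lower in MI moDCs. The median log2 fold change of the list was 0.26 in macrophages, 0.12 in cDC1, -0.10 in cDC2 and -0.02 in moDCs, beside -0.03 over all genes. Ifit2, an antiviral protein, was 3.35-fold higher in MI macrophages (139 ± 42.4 CPM against 41.6 ± 1.96 CPM in SS, SD, n = 4 each; adjusted p = 6.76e-05), 2.46-fold higher in MI moDCs (adjusted p = 0.00281; 0.0757 against SS numbers 1 and 4) and 2.53-fold higher in MI cDC2 (adjusted p = 0.00223; 0.0600 against SS numbers 1 and 4). It was also called higher in MI cDC1 (1.85-fold, adjusted p = 0.0305), lost without MI cDC1 library 1, 3 or 4 or SS cDC1 library 2 or 3 (adjusted p up to 0.124) or against SS numbers 1 and 4 (0.3397). Oasl1 was 4.06-fold lower in MI cDC2 (16.1 ± 5.05 CPM, n = 3, against 65.4 ± 15.6 CPM in SS, n = 4, SD; adjusted p = 2.21e-06) and 2.24-fold lower in MI moDCs (adjusted p = 0.00145). Of 10 genes of the autophagy conjugation system that loads these GTPases onto membranes, Atg3 was 1.48-fold higher in MI cDC1 (adjusted p = 8.15e-04), and 0 were called in MI moDCs or MI cDC2. Map1lc3a was called lower in MI cDC1, lost without MI cDC1 library 2, 3 or 4 or SS cDC1 library 1 or 2 (adjusted p up to 0.0664) or against SS numbers 1 and 4 (0.102). It was also called lower in MI macrophages, lost without MI macrophage library 1, 2 or 3 or SS macrophage library 1, 2 or 3 (up to 0.166) or against SS numbers 1 and 4 (0.288).

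**Figure D4:**
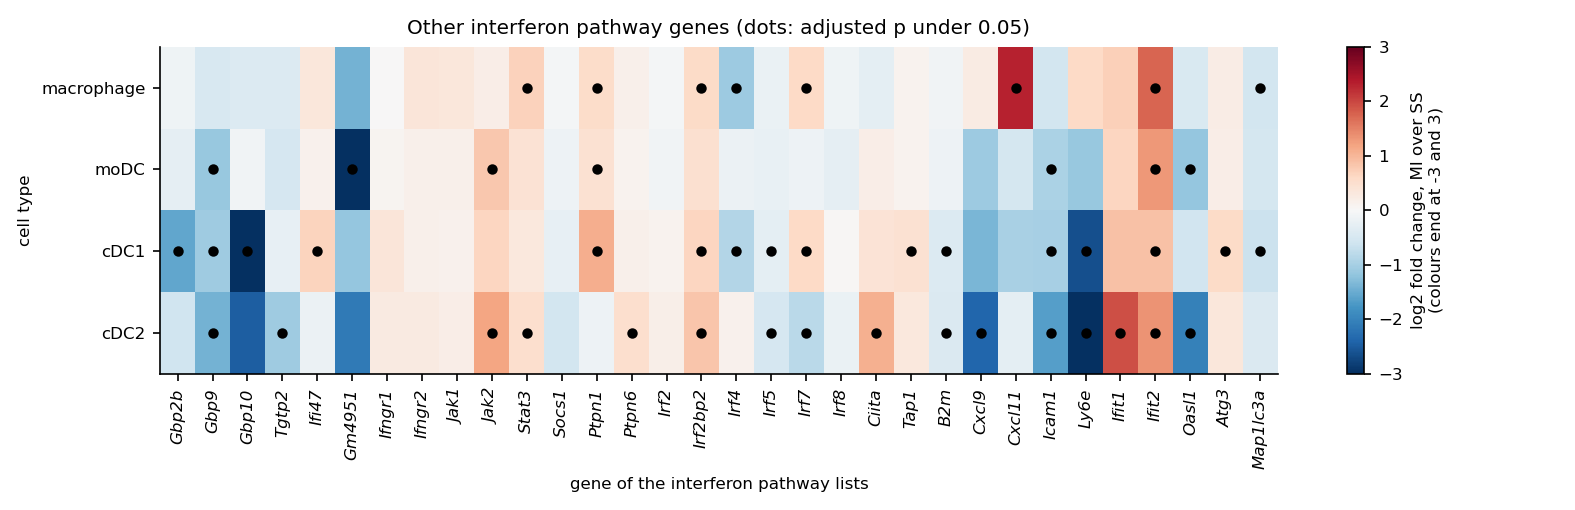
Log2 fold change, MI over SS (colour, red higher in MI), of other genes of the interferon pathway lists (columns) in the 4 cell types (rows); dots mark an adjusted p under 0.05, and colours end at -3 and 3. Icam1 carries a dot in moDCs, cDC1 and cDC2, Ifit2 in all 4 rows, and Ifngr1, Ifngr2, Jak1 and Socs1 carry none.

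Across the 8 group means of log2 CPM, some of the 10 genes followed each other and others did not. Gbp6 and Igtp had a Pearson r of 0.97, Gbp2 and Gbp3 0.93, Gbp3 and Gbp7 0.92, and Iigp1 and Igtp 0.88, whereas Irgm1 had -0.68 with Gbp5. The 8 points of each r share their libraries, and with so few points the values are a description. The search ran over 10155 other genes that reached an average of 5 CPM in a group. The nearest to Irf1 were Smad6 (0.99), Mon1b (0.98) and Tacc2 (0.98). The nearest to Gbp2 were Tnfaip2 (0.98), Lpl (0.97) and Gbp2b (0.97), and to Gbp3 Rab20 (0.997), Klra2 (0.99) and Plxdc2 (0.99). Gbp4 was nearest to Icam2 (0.97), Tgfbr3 (0.96) and Gbp8 (0.94). Gbp5 was nearest to Lat2 (0.99), Sdc1 (0.98) and Gart (0.95). Gbp6 was nearest to Cln6, Nynrin and Dgkz (0.99 each), and Gbp7 to Clec4a1, Irak3 and Zeb2 (0.99 each). Among the IRGs, Iigp1 was nearest to Actc1 (0.99), Serpine2 (0.98) and Armc2 (0.98). Actc1 is one of the cardiomyocyte markers whose sums, given above, were lower in MI in each cell type. Igtp was nearest to Layn (0.99), Sgcb (0.98) and Tmem106c (0.98), and Irgm1 to Eid1 (0.97), Ccdc90b (0.97) and Pgpep1 (0.96).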

How the data were processed

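RNA from sorted heart cells was amplified with SMART-Seq v4 and read as single 75-base reads, per the labels' protocols. The submitters' processing notes name TopHat2 2.1.0, SAMtools 0.1.18, Trimmomatic 0.35, FastQC 0.11.4 and the build mm10. How reads were counted, with which annotation and whether by strand, is not stated there. The deposited files hold raw whole-number read counts per gene symbol. Without strand, reads of Irf1 and of the overlapping antisense gene Gm17334 (3.40% of Irf1's exon bases) cannot be told apart. Entries that name no gene stayed out: reads outside features made up 6.42% to 16.9% and ambiguous reads 0.857% to 1.21% per library.

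Libraries were grouped by their labels into 8 groups. Counts were filtered with filterByExpr (minimum count 10), which kept 13039 genes, and TMM-scaled. One model with a mean for each group over 31 libraries was fitted with edgeR 4.0.16's robust quasi-likelihood test in R 4.3.3, with Benjamini-Hochberg adjustment over all genes and calls at an adjusted p under 0.05. The script was tested on simulated counts. Alternatives were DESeq2 1.42.0, other size factors, no filter, only the libraries compared, the replicate number as a block, a mural and endothelial covariate, each pair of SS numbers, and leaving out each library. Intervals and floors (3 reads) cover counting error only, since PCR reads without molecular identifiers are not independent molecules. The 10 genes, the pathway lists and the marker lists were chosen with earlier results of these data known. Within the lists, the text names up to 3 genes with the smallest adjusted p, and fixed genes of the pathway (Ifng, its receptor, Jak1, Jak2, Socs1, Irf2, Irf8, Ciita and Cxcl9; a further gene of that rule is not reported here); Gbp8 and Pias1 were named after their values were seen. The 3 nearest genes were taken by Pearson r over the 8 group means of log2 CPM (prior count 2), leaving out predicted and unnamed genes.

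Same-numbered SS libraries deviated together in macrophages and moDCs (correlations of 0.12 to 0.203 over genes in 4 pairs) and in macrophages and cDC2 (0.109 to 0.16 in 4 pairs), so those pairs were also fitted with the number as a block. In SS cDC1 and SS cDC2 the correlations ran from 0.0589 to 0.154 in 4 pairs, and that fit covered this pair too. The pairing comes from the data, and the labels give only the number. No 2 libraries of a group agreed within sampling noise.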

Additional observations from a re-analysis of the deposited data

Results flagged for a closer look

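In groups of 4 libraries, a library was looked at again where its gap to the nearest other made up nearly the whole range of the group; this was checked in 70 groups, chance alone gives about 1 in 20, and 6 were found. Gbp4 was at 21.1 CPM in MI cDC1 library 1, where the next highest was 6.96 CPM. Gbp5 was at 14.9 CPM in the same library, where the next was 3.35 CPM. Gbp6 was at 0.206 CPM in the same library, and at 0 CPM in the other MI cDC1 libraries. Gbp6 was also at 0.780 CPM in SS cDC1 library 4 (next 0.0992 CPM) and at 6.65 CPM in SS macrophage library 3 (next 2.96 CPM). In cDC1 these are counts near 0, with 2, 0, 0 and 0 reads in MI and 0, 1, 1 and 8 reads in SS. The rate of 1 in 20 does not hold for such counts. Irgm1 was at 73.1 CPM in SS cDC2 library 1, where the next was 57.9 CPM.

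The effect of MI on Gbp2 and Gbp4 was called as differing between cell types by the test of the difference itself, an interaction in edgeR's quasi-likelihood fit over all libraries. Over the 4 cell types the adjusted p was 0.00196 for Gbp2 and 0.0288 for Gbp4. Neither was called against SS numbers 1 and 4 (0.108 and 0.173) or with the mural and endothelial covariate (0.0889 and 0.0797). For Gbp4 8 of 40 alternative fits lost the call. In cDC1 set against macrophages it was 6.10e-04 for Gbp2 and 0.0492 for Gbp4, and in cDC2 set against macrophages 0.0299 for Gbp2 and 0.0148 for Gbp4. Both genes were lower in MI cDC1 and MI cDC2, Gbp4 also in MI moDCs, where Gbp2 was not called (adjusted p = 0.513). In macrophages Gbp2 was higher in 4 of 4 MI libraries than in any SS library without passing the test.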

How the results depend on the processing

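Other size factors and no filter on low counts changed none of the numbers of genes called among the 10 for MI; the calls for MI also held with DESeq2. Against SS numbers 1 and 4 alone, 1 gene (Irf1) was called in macrophages in place of 0, 2 in cDC1 in place of 5, and 0 for an effect that differed among cell types in place of 2. Over all genes, 728 of 13112 were called there in macrophages and 974 in cDC1, against 963 and 1158 of 13039 in the main fit. Against SS numbers 2 and 3 alone, 1 (Gbp7) was called in macrophages and 1 in moDCs in place of 2. Over all genes, 1349 of 13088 were called there in macrophages and 810 in moDCs, against 963 and 631 of 13039 in the main fit. With the mural and endothelial covariate, 0 were called in moDCs, 0 in cDC1, 2 in cDC2 in place of 4, and 0 for an effect that differed among cell types; B2m in cDC1 changed its sign there (log2 0.21, against -0.41). In a fit on the compared libraries only, 2 were called in cDC1, where 894 of 10845 genes were. The cause of these changes was not tested; the fits on pairs of SS numbers hold fewer libraries. With the replicate number as a block, 1 gene was called in macrophages, Irf1 (log2 -0.58, adjusted p = 0.0181), whose effect was also called as differing among cell types (0.0419); same-numbered MI and SS libraries did not deviate together (correlations of -0.047 to 0.065), so they share only a number. For SS macrophages against moDCs or cDC2, the block changed the call of Irf1 between cDC2 and macrophages and no other of the 10 genes. Between SS cDC1 and SS cDC2 it changed the call of Irf1 as well (adjusted p = 0.0186, against 0.0779 without the block). Leaving out each library in turn gave 0 to 1 genes in macrophages, 1 to 2 in moDCs, 3 to 5 in cDC1, 2 to 5 in cDC2, 1 to 3 for an effect that differed among cell types, 7 to 10 for differences among MI cell types and 9 to 9 among SS cell types. Low levels limit Gbp6 in cDC1 and cDC2 and Gbp7 in cDC1.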
